A study of Mus musculus with 25 samples.

Results

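The genes described here encode enzymes and subunits that modify or remodel chromatin. They are histone demethylases (Kdm), histone methyltransferases (Kmt), histone deacetylases (Hdac) and chromodomain helicases (Chd). The others are SWI/SNF subunits with related proteins (Smarc, Arid1 and Arid2) and other proteins with an AT-rich interaction domain (Arid). Genes with Smarc, Arid1 or Arid2 symbols are called SWI/SNF genes below, though Smarca1, Smarca5, Smarcad1 and Smarcal1 encode no SWI/SNF subunit. All genes were chosen by symbol among the protein-coding genes of the mouse annotation (mm10), leaving out Arid5a, which gave 69 of 21896 genes. Their contacts were measured by H3K27ac HiChIP, which joins neighbouring DNA ends inside the nucleus, pulls down the joined fragments that carry the active mark H3K27ac, and counts read pairs between bins of 1 kb. The 6 libraries came from CD8+ T cells of C57BL/6J mouse spleen, with 3 genotypes and 2 treatments and 1 library for each combination. The genotypes were wild type (WT), a CRISPR deletion of intronic Il2ra sequence (intron deletion), and a second CRISPR deletion placed upstream of Il2ra (upstream deletion). Il2ra encodes the alpha chain of the IL-2 receptor. After a 2-day stimulation and a 4 h rest, cells of each genotype either stayed untreated (control) or received IL-2. The labels' protocols name IL-2 or anti-CD3 with anti-CD28 as the 2-day stimulus without saying which was used for these libraries. The sources used here give neither how much IL-2 was used and for how long, nor the position of the deletions, nor how many mutant lines or mice stand behind each library.

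Chromatin regulators act in opposing pairs. Histone acetyltransferases, methyltransferases and their opponents, the deacetylases and demethylases, write and erase marks on histone tails, while the SWI/SNF complexes and the chromodomain helicases use ATP to slide or evict nucleosomes. In CD8+ T cells such proteins are known to take part in the passage from naive to effector and memory states, and H3K27ac marks the active promoters and enhancers of the cell.

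A loop is a pair of bins listed in the deposited tables, and a loop belonged to a gene when an anchor bin overlapped the gene or the 1 kb on either side of it. No listed loop had fewer than 20 contacts or spanned less than 5 kb, so a loop that was not listed was treated as below the listing limit and not as absent. The contacts of a gene were summed over the loops listed in all 6 libraries (shared loops) and divided by a depth factor (TMM, from 0.773 to 1.25), and these sums are called scaled contacts. A second readout, coverage, was the summed read count of the bins that anchored a loop in every library, scaled in the same way. Differences were tested with edgeR's quasi-likelihood test over all genes, with genotype and treatment as terms and Benjamini-Hochberg adjustment at a threshold of 0.05. No genotype and treatment had a second library. The p-values therefore set a common change against how much the IL-2 change differed between genotypes and the genotype change between treatments. That spread was partly or wholly borrowed from other genes or loops, and it is not the spread between like samples. In bulk cells, fewer cells with a contact and fewer contacts per cell cannot be told apart.

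The libraries listed from 38879 to 94922 loops with 1314137 to 3596995 contacts in all, and the intron deletion control library was the shallowest. Loops of chromatin regulator genes made up from 0.888% to 1.01% of the listed loops. Of 10 marker genes of CD8 T cells, 9 matched the annotation and all of these had contacts in every library, with summed scaled contacts from 21251 to 24315 in controls and from 20153 to 25609 with IL-2. None of 4 CD4 or regulatory T cell markers, 3 NK cell markers and 4 erythroid markers had a shared loop. Of 6 B cell markers Cd79a was measured, at 1143 to 1436 scaled contacts in controls and 1119 to 1560 with IL-2, and of 7 myeloid markers Cd68 and Tyrobp were, with sums of 401 to 432 and 466 to 503. Both CD8 chain genes and Cd79a had more contacts in intron deletion cells than in WT cells (log2 changes of 0.55 for Cd8a, 0.43 for Cd8b1 and 0.41 for Cd79a; adjusted p = 3.86e-05, 0.000632 and 0.00147), and Cd3e had fewer with IL-2 (-0.25, adjusted p = 0.0466). Their part in the results on chromatin regulators was not tested.

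The promoters of 4 genes that the results turn on are shown here, since the start site of each lay in a bin that anchored loops in all 6 libraries. Kdm3a and Kdm2b changed with IL-2, Kmt2c changed in intron deletion cells, and Hdac7 had the most contacts per kb. The RefSeq promoter table (GRCm38.p6) held 51 of the 69 genes. Each window has 250 bases before and 50 bases after the start site, from the minus strand, and where a gene had several start sites the one in the bin with the most reads is given. Capitals mark matches on either strand to the letters TTCNNNGAA (STAT), TGANTCA (AP-1), CACGTG (E-box) or GGGCGG (GC box), and neighbouring matches can overlap.
Kdm3a, chr6:71632637-71632936: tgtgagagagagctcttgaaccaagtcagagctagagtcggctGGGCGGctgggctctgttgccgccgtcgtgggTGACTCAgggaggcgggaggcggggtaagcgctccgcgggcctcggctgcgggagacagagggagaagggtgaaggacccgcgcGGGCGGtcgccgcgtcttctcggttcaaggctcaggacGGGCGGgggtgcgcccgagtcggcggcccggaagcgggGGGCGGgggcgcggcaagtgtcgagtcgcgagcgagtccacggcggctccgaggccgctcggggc
Kdm2b, chr5:122988458-122988757: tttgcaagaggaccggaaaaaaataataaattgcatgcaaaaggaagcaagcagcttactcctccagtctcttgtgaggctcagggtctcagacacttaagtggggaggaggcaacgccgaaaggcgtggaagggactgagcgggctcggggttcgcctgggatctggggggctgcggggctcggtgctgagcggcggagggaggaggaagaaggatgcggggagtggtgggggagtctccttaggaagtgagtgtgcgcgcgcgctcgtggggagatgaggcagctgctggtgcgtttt
Kmt2c, chr5:25498734-25499033: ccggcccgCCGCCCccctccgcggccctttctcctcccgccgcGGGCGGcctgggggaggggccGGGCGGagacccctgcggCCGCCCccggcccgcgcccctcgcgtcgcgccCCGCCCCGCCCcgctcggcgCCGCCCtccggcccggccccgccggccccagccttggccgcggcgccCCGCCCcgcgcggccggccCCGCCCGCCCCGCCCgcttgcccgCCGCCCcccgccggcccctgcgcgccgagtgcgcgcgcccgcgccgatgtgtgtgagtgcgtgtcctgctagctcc
Hdac7, chr15:97831446-97831745: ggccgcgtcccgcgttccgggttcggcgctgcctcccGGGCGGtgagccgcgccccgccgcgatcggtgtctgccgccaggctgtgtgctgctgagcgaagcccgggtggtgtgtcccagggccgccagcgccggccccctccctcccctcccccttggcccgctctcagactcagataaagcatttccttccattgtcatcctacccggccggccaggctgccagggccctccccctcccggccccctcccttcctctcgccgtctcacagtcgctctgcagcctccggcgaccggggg
The Kdm3a window held TGACTCA, an AP-1 match, 175 bases before the start site, and 4 GC box matches. The Kmt2c window held 12 GC box matches and was 88% G and C. The Hdac7 window held 1 GC box match at 73.7% G and C, and the Kdm2b window held none of these letters at 59.7%. Among 32851 windows of the same length in the table, 8.3% held the STAT letters, 7.81% the AP-1 letters, 7.15% the E-box and 35.7% the GC box. A match describes the letters alone.

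Chromatin regulator genes carried listed loops more often than genes at large, but had fewer contacts per kb. A loop was listed in at least 1 library for 46 of the 69 genes (66.7%) and in all 6 libraries for 32 (46.4%), against 35.8% and 19.1% of all protein-coding genes. They were also long genes, with a median length of 51.8 kb against 17.15 kb, and these shares were not adjusted for length. The median measured gene had 2.465 contacts per kb of its extended span (mean of the 6 libraries), against 7.649 for all genes with shared loops. The median number of shared loops was 3 in both, while the median length of these genes was 65 kb against 15.7 kb. The part of length in the lower level per kb was not tested. In all, the genes anchored 1135 of the 121571 loops listed in any library and 296 of the 28033 shared loops.

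The families differed in how many members were measured. All 8 methyltransferase genes, 12 of 18 demethylase genes, 10 of 16 SWI/SNF genes, 6 of 10 chromodomain helicase genes and all 6 other Arid genes had a listed loop, against 4 of 11 deacetylase genes. A shared loop was found for 6, 6, 8, 6, 4 and 2 of these, in the same order. The 10 SWI/SNF genes with a listed loop include Smarca5, while the 8 with a shared loop all encode SWI/SNF subunits. No loop was listed in any library for Hdac2, Hdac3, Hdac5, Hdac6, Hdac8, Hdac9, Hdac11, Kdm1b, Kdm4a, Kdm4c, Kdm4d, Kdm5b, Kdm5d, Smarca1, Smarca2, Smarcad1, Smarcal1, Smarcc1, Smarcd1, Chd1l, Chd5, Chd6 or Chd9. Another 14 genes had loops that were not listed throughout: Kdm1a, Kdm2a, Kdm5c, Kdm6a, Kdm7a, Kdm8, Kmt5b, Kmt5c, Hdac4, Hdac10, Smarca5, Smarcd3, Arid3b and Arid3c. Kdm6a, an H3K27 demethylase encoded on the X chromosome, had listed contacts of 144 in the WT control library and 139 in the WT IL-2 library, 50 in the intron deletion IL-2 library, and none listed in the other 3.

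**Figure D1:**
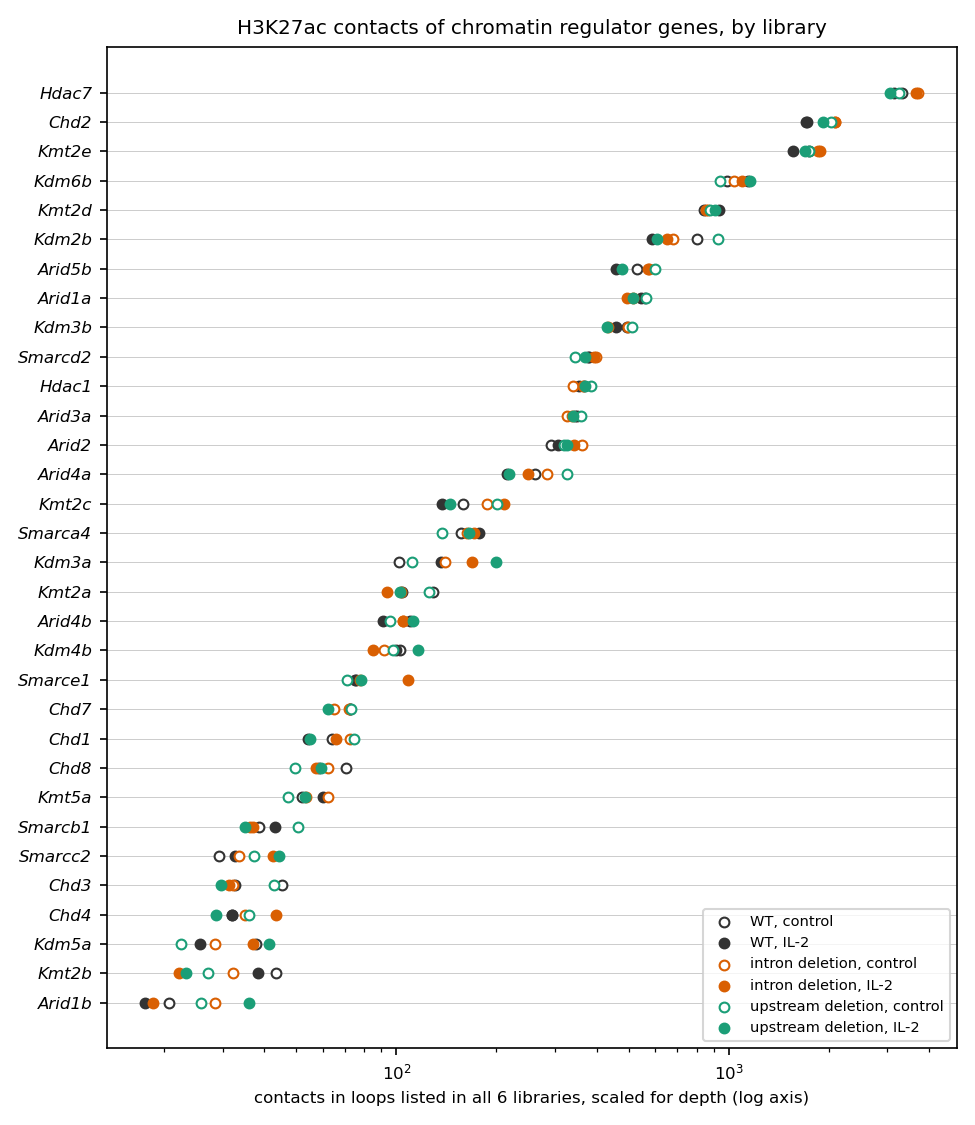
Scaled contacts of the 32 measured chromatin regulator genes in each of the 6 libraries (log axis, summed over shared loops and not per length); open points are control libraries and filled points IL-2 libraries, coloured by genotype. Hdac7 leads with 3045 to 3718 scaled contacts and Arid1b is lowest with 17.6 to 36.0, a range far wider than the spread of any gene over the libraries.

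Hdac7 had the highest level per length of the set, 62.1 contacts per kb, above 86.6% of all genes with shared loops. It encodes a class IIa histone deacetylase known for its high expression in T cells. Scaled contacts were 3318 in the WT control and 3141 in the WT IL-2 library, 3718 and 3660 in intron deletion cells, and 3248 and 3045 in upstream deletion cells. The libraries lay close together, with both intron deletion libraries highest. Hdac7 (gene ID 56233) lies on chromosome 15 from 97792661 to 97844502 and had 62 shared loops, of which 55 had both anchors within the gene and its 1 kb flanks. The bin from 97831001 to 97832000, which holds the start site of the promoter printed above, anchored 22 of them. Its strongest loop joined this bin to the bin 6 kb away that starts at 97837001, also within the gene, with 171 and 193 contacts in the WT control and IL-2 libraries, 166 and 202 in intron deletion cells and 153 and 167 in upstream deletion cells, before scaling. Hdac1, the only other deacetylase gene with shared loops, had 12.7 contacts per kb. It encodes a class I enzyme of the NuRD, Sin3 and CoREST corepressors. Of its 9 shared loops, 8 left from the bin at 129542001 on chromosome 4, at the end of the gene, and 6 reached the neighbouring gene Lck, which encodes the T cell receptor kinase. Scaled contacts of Hdac1 lay between 339 and 386 in the 6 libraries.

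Chd2, which encodes a chromodomain helicase, had the most long-range contacts of the set. It lies on chromosome 7 from 73426652 to 73541746 (gene ID 244059) and had 42 shared loops with a median distance of 77.5 kb, against 14 kb for the median gene of the set. Of these loops, 17 ended in 1 bin from 73618001 to 73619000, which holds no annotated RefSeq gene and lies 76255 bases beyond Chd2, the nearest coding gene. Before scaling these 17 loops summed to 1006 contacts in the WT control and 1200 in the WT IL-2 library, 884 and 1266 in intron deletion cells, and 984 and 1010 in upstream deletion cells. At the gene, 15 loops left from the bin at 73541001, which also holds the long noncoding RNA gene Chaserr. No shared loop of Chd2 touched another protein-coding gene. The other helicase genes had at most 2 shared loops each. Chd3 and Chd8 followed with 1.26 and 0.96 contacts per kb, and Chd4, which like Chd3 encodes the ATPase of the NuRD complex, had 1 loop of 5 kb with 27 to 47 contacts before scaling.

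**Figure D2:**
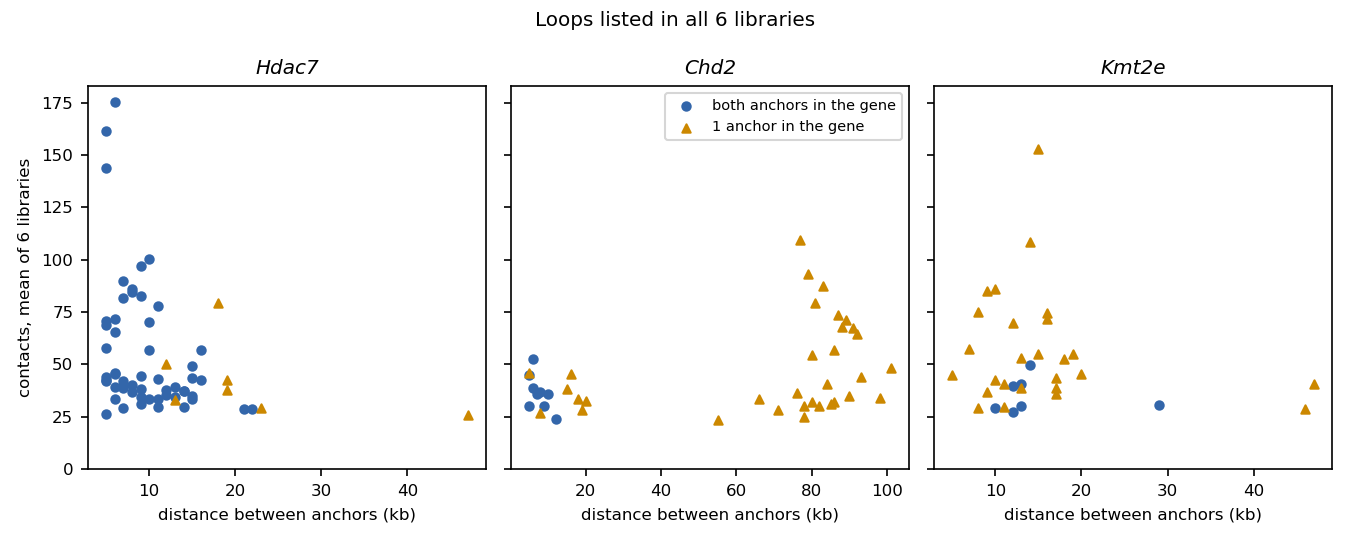
Contacts of each shared loop (mean of the 6 libraries, not scaled) against the distance between its anchors in kb, for Hdac7, Chd2 and Kmt2e; circles are loops with both anchors in the gene or its 1 kb flanks and triangles loops with 1. Loops of Hdac7 stay mostly inside the gene, many of those of Chd2 gather between 77 and 101 kb, and those of Kmt2e mostly leave the gene over short distances.

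Among the methyltransferase genes, Kmt2e had the highest level per length, 23.7 contacts per kb, and encodes a SET-domain protein that reads methylated H3K4. It had 33 shared loops and 21 left from the bin at 23433001 on chromosome 5, at the low end of the gene, toward the overlapping noncoding RNA gene 5031425E22Rik. Scaled contacts were 1746 and 1563 in WT cells (control, then IL-2, here and below), 1854 and 1881 in intron deletion cells, and 1747 and 1696 in upstream deletion cells. Kmt2d, which encodes a methyltransferase that places H3K4 monomethylation at enhancers, had 19.8 contacts per kb. Of its 13 shared loops 12 touched another gene, most often Rhebl1 (7 loops) and Dhh (6 loops). Its strongest loop, 8 kb to Rhebl1, held 146 and 177 contacts in WT cells, 89 and 136 in intron deletion cells and 101 and 132 in upstream deletion cells before scaling. Kmt5a, the H4K20 monomethylase, followed with 2.24 contacts per kb. Its 2 loops, like the value, are shared with Sbno1.

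Kdm6b, the H3K27 demethylase gene known for its induction by immune signals, had 44.6 contacts per kb, the highest of the demethylase genes. Scaled contacts were 989 and 1139 in WT cells, 1040 and 1095 in intron deletion cells, and 938 and 1157 in upstream deletion cells. Of its 23 shared loops, 17 touched another gene, with 15 at Naa38, 15 at Tmem88 and 14 at Cyb5d1, which lie side by side. The same neighbours were reached by the 1 shared loop of Chd3, 29 kb long. Kdm3b, an H3K9 demethylase gene on chromosome 18, had 7.27 contacts per kb and 7 of its 8 shared loops left from the bin at 34777001, at the low end of the gene. Its longest loop, 154 kb to Etf1, was the longest shared loop of the set. Kdm2b followed with 5.83 contacts per kb.

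Of the SWI/SNF genes, Smarcd2 had 31.9 contacts per kb, Arid1a 6.67 and Smarce1 3.39. Smarcd2 encodes a BAF60 subunit, and each of its 7 shared loops touched a neighbouring gene, 6 of them Tcam1. An end of Tcam1 lies in the bin at 106273001 on chromosome 11, beside the bin at 106272001 that holds an end of Smarcd2. Arid1a encodes the DNA-binding subunit of the canonical BAF complex. Of its 12 shared loops 5 ran over 80 to 85 kb to 1 bin at 133672001 on chromosome 4, in Pigv, and 7 stayed within the gene. The Pigv bin held 205 and 215 contacts with Arid1a in WT cells, 137 and 199 in intron deletion cells, and 159 and 166 in upstream deletion cells before scaling. Smarca4, which encodes the ATPase BRG1, had 5 shared loops, none touching another gene, and scaled contacts between 137 and 177. Arid2, a subunit of the PBAF complex, had 8 shared loops, of which 6 had both anchors within the gene and its 1 kb flanks. All 8 also touched Gm38469, a gene with an end in the same bin as Arid2, at 96287001 on chromosome 15. Among the other Arid genes, Arid3a had 11.5 contacts per kb, Arid4a 2.96 and Arid5b 2.81. The 9 loops of Arid3a all touched other genes, most often Med16 (4 loops) and Ptbp1 (3 loops).

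IL-2 was followed by a change of contacts at 3 of the 32 measured genes: Kdm3a rose and Kdm2b and Arid4a fell, which is 9.38% of the genes against 5.59% of all 3508 gene features tested. No deacetylase, methyltransferase, SWI/SNF or helicase gene passed the test with IL-2. The median log2 change was -0.03 for the 32 genes and -0.0039 for all features, and 12 of the 32 lay above 0. The groups of 3 control and 3 IL-2 libraries did not overlap for 5 genes (Kdm2b, Kdm3b, Kdm6b, Smarca4 and Arid4a), which is 15.6% of the set against 14.3% of all features.

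Kdm3a encodes a demethylase of mono- and dimethylated H3K9 and lies on chromosome 6 from 71588970 to 71632990 (gene ID 104263). Scaled contacts were 102 and 136 in WT cells, 139.7 and 169 in intron deletion cells, and 111 and 199 in upstream deletion cells. Every genotype was higher with IL-2, while the groups overlapped, since the control library of the intron deletion lay above the IL-2 library of WT. The change was 1.42-fold (log2 0.51 ± 0.12 SE, adjusted p = 0.0239). All 3 shared loops of Kdm3a ran 5 or 6 kb from 2 bins at its high end, 1 of which holds the start site of the promoter printed above, to bins outside any annotated gene. The loop from the bin at 71632001 to the bin at 71638001 rose by itself (log2 0.75 ± 0.21, adjusted p = 0.0149), with 31.4 and 39.5 scaled contacts in WT cells, 35.0 and 53.2 in intron deletion cells and 21.8 and 58.6 in upstream deletion cells. Without any 1 of the WT or upstream deletion libraries the adjusted p of the gene rose above the threshold, up to 0.560, with log2 changes between 0.35 and 0.64 over all 6 fits that left out a library.

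Kdm2b encodes an H3K36 demethylase that binds unmethylated CpG islands and recruits a Polycomb complex there. It lies on chromosome 5 from 122870664 to 122989270 (gene ID 30841). Scaled contacts were 805 and 588 in WT cells, 682 and 653 in intron deletion cells, and 929 and 608 in upstream deletion cells. All control libraries lay above all IL-2 libraries, and the intron deletion had the smallest gap. The fitted change was a fall to 0.768 of the control level (log2 -0.38 ± 0.08 SE, adjusted p = 0.0180). The loop of 9 kb from the promoter bin at 122988001 to the bin at 122997001, in the noncoding RNA gene A930024E05Rik, fell in every genotype, from 60.0 to 35.3 scaled contacts in WT cells, 55.7 to 39.4 in intron deletion cells and 50.2 to 30.4 in upstream deletion cells (log2 -0.66 ± 0.20, adjusted p = 0.0294). Leaving out any 1 of the WT or upstream deletion libraries ended the call of the gene as well, with adjusted p up to 0.560 and log2 changes between -0.53 and -0.26.

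Arid4a encodes a subunit of the Sin3 and histone deacetylase corepressor and lies on chromosome 12 from 71015081 to 71099351 (gene ID 238247). Scaled contacts were 261 and 215 in WT cells, 285 and 249.6 in intron deletion cells, and 325 and 218 in upstream deletion cells. The control libraries again lay above the IL-2 libraries with no overlap (log2 -0.35 ± 0.09 SE, adjusted p = 0.0332). All 7 shared loops of Arid4a met in the bin at 71016001, near the low end of the gene, and reached up to 48 kb, 2 of them to Psma3, a proteasome subunit gene. This call, too, was lost without any 1 of the WT or upstream deletion libraries (adjusted p up to 0.566, log2 -0.42 to -0.23).

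**Figure D3:**
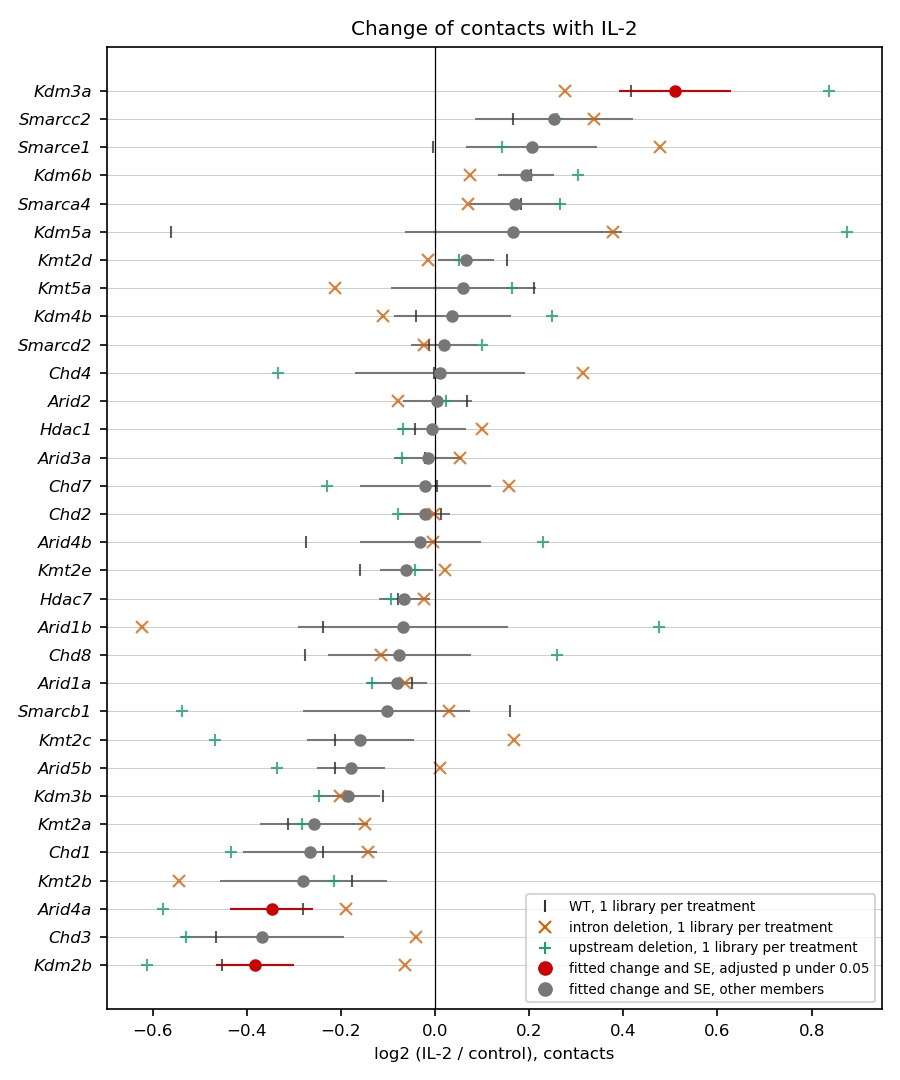
Log2 ratio of IL-2 to control for the contacts of the 32 measured genes; circles and bars are the fitted change and its SE (red where the adjusted p is under 0.05), and the other marks the ratio within each genotype, from 1 library per treatment. Kdm3a at 0.51, and Kdm2b at -0.38 and Arid4a at -0.35, are the genes past the threshold. For each the mark of the intron deletion lies nearest 0, an order whose share over all features was not counted.

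Kdm6b had more contacts with IL-2 in each genotype, without overlap, and missed the threshold (log2 0.19 ± 0.06 SE, adjusted p = 0.0712). At 2 of its loops the rise passed the test. The loop from the bin of Naa38 and Tmem88 at 69396001 on chromosome 11 to the bin at 69409001 had 41.9 and 73.2 scaled contacts in WT cells, 51.8 and 61.4 in intron deletion cells, and 36.0 and 56.5 in upstream deletion cells (log2 0.58 ± 0.18, adjusted p = 0.0467). The loop within the gene from 69410001 to 69419001 had 28.6 and 47.7, 31.1 and 44.0, and 27.3 and 45.0 in the same order (log2 0.66 ± 0.21, adjusted p = 0.0478). In both loops every IL-2 library lay above every control library, which is not a separate result, since the loops were named for passing the test. Kdm3b had a lower sum with IL-2 in each genotype, which did not pass (log2 -0.18 ± 0.07, adjusted p = 0.116).

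In all, 7 of the 296 shared loops of the set passed the test with IL-2, 3 higher and 4 lower, which is 2.36% against 3.3% of all shared loops. Of the 3 not yet described, a loop of Kdm3b to Etf1 fell from 26.7 to 17.3 scaled contacts in WT cells, 44.1 to 26.6 in intron deletion cells and 39.3 to 21.99 in upstream deletion cells (log2 -0.73 ± 0.20, adjusted p = 0.0365). A loop of Hdac7 of 23 kb, from the bin at 97826001 to the noncoding RNA gene Gm33690, fell from 41.0 to 18.9, 38.9 to 22.9 and 33.8 to 24.1 (log2 -0.80 ± 0.20, adjusted p = 0.0138). A loop of 5 kb within Kmt2a, the H3K4 methyltransferase gene known from mixed-lineage leukaemia, fell from 41.0 to 25.5, 40.2 to 22.01 and 40.4 to 26.2 (log2 -0.72 ± 0.20, adjusted p = 0.0269). In each of these 3 loops every control library lay above every IL-2 library, by the narrowest margin at Kdm3b (26.7 in the WT control against 26.6 in intron deletion cells given IL-2). As above, that is not a separate result, since these loops too were named for passing the test. The loop fit uses 1 common spread for every loop.

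The other families moved less than their errors allowed to call. The 8 SWI/SNF genes had log2 changes with IL-2 between -0.10 (Smarcb1, a core subunit) and 0.25 (Smarcc2, a core subunit), with a median of 0.01. Smarca4 had 156 and 177 scaled contacts in WT cells, 163 and 171 in intron deletion cells and 137 and 165 in upstream deletion cells, without overlap of the treatments (log2 0.17 ± 0.10 SE, adjusted p = 0.336). The 6 helicase genes lay between -0.37 (Chd3) and 0.01 (Chd4), and the 6 methyltransferase genes between -0.28 (Kmt2b) and 0.07 (Kmt2d). Hdac7 and Hdac1 had -0.06 and -0.01.

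Coverage, the second readout, could be measured for 36 of the genes, and none passed the edgeR test with IL-2, nor did any of the 4157 gene features (0%). At an unadjusted p under 0.05 there were 14 of the 36 genes and 1659 of all features. Control and IL-2 libraries did not overlap for 7 of the 36 genes, 19.4% against 17.8% of all features. DESeq2, run on the same coverage, called 5 of the 36 genes (13.9%), beside 726 of the 4157 features. The 5 were Kdm6b, higher (log2 0.31), and Kdm2b, Arid4a, Kdm3b and Kmt2a, lower (log2 -0.34, -0.33, -0.24 and -0.26). The edgeR estimates had the same directions, 0.32 ± 0.08 SE for Kdm6b, -0.33 ± 0.08 for Kdm2b and -0.33 ± 0.08 for Arid4a, each with an adjusted p of 0.0749. Coverage of Kdm6b was 14967 and 19657 reads in WT cells, 17170 and 18126 in intron deletion cells, and 15343 and 21477 in upstream deletion cells, scaled for depth. That of Kdm2b was 15961 and 12078, 13729 and 12757, and 17457 and 12506. In both genes the treatments did not overlap and the step was smallest in intron deletion cells. At Kdm3a coverage was 7821 and 9323, 9318 and 9614, and 8684 and 10129 (log2 0.17 ± 0.05, adjusted p = 0.0778).

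The reads of these genes sat in a few bins. At Kdm6b the bins at 69409001 and 69410001 held 2635 and 3911 reads in the WT control library and 4394 and 5193 in the WT IL-2 library, and the bin of its last annotated base held 315 and 330. At Kdm2b the promoter bin at 122988001 held 5183 and 3414, and at Arid4a the bin at 71016001 held 4158 and 3289, against 448 or fewer in its other listed bins. For Kdm3a, both listed bins held more reads with IL-2 in each genotype, with 4941 and 5783 reads in WT cells at 71633001, 5848 and 6072 in intron deletion cells, and 5577 and 6424 in upstream deletion cells.

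**Figure D4:**
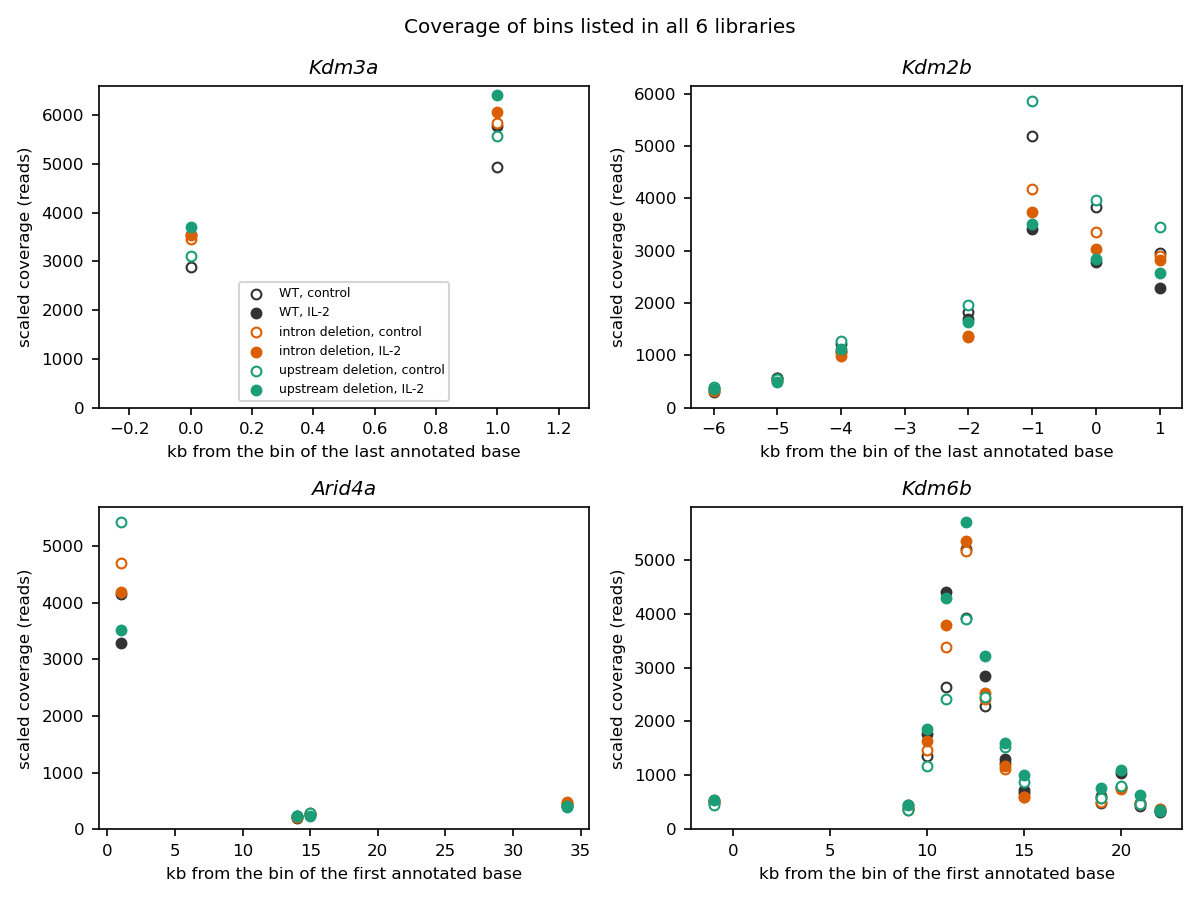
Scaled coverage in reads of each bin of Kdm3a, Kdm2b, Arid4a and Kdm6b that anchored a loop in all 6 libraries, against its distance in kb from the bin that holds the last (Kdm3a, Kdm2b) or first (Arid4a, Kdm6b) annotated base; open points are control and filled points IL-2 libraries, coloured by genotype. At the highest bin the treatments did not overlap for Kdm2b (5183 against 3414 reads in WT cells) and Kdm6b, and overlapped for Kdm3a and Arid4a.

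Whether IL-2 acted differently in the intron deletion was tested as the IL-2 response of that genotype against that of the other 2. In contacts 1 of the 32 genes, Kdm2b, passed (log2 difference 0.46 ± 0.10 SE, adjusted p = 0.00150), against 4.48% of all features. Its log2 responses were -0.45 in WT cells, -0.06 in intron deletion cells and -0.61 in upstream deletion cells. In coverage 10 of the 36 genes passed, against 27.5% of all features, and 7 of them had a higher and 3 a lower response in intron deletion cells. The same test for WT or for the upstream deletion called no gene of the set or of all features with edgeR in either readout, with at most 1 gene of the set at an unadjusted p under 0.05 in each, and DESeq2 was not run on it. This fit leaves 1 residual degree of freedom, and the intron deletion response has no replicate from which to take a spread.

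In the intron deletion, contacts of 2 of the 32 genes rose against WT, Chd2 and Kmt2c, and none fell. This is 6.25% of the genes, against 17.3% of all features. The median log2 change was 0.04 for the set and -0.02 for all features, and 18 of the 32 lay above 0. Both intron deletion libraries lay outside the range of both WT libraries for 20 of the genes, 62.5% of them against 55.4% of all features.

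Scaled contacts of Chd2 were 1710 and 1725 in WT cells and 2083 and 2080 in intron deletion cells, and 2027 and 1921 in upstream deletion cells. Both deletion genotypes lay above WT, and the rise in the intron deletion was 1.21-fold (log2 0.28 ± 0.07 SE, adjusted p = 0.00837). The upstream deletion differed by 0.20 and did not pass (adjusted p = 0.213). The loop of 77 kb from the bin of Chd2 and Chaserr at 73541001 to the intergenic bin at 73618001 rose by itself (log2 0.53 ± 0.16, adjusted p = 0.0155), with 99.1 and 77.3 scaled contacts in WT cells, 117 and 134 in intron deletion cells and 128 and 111 in upstream deletion cells. Coverage of Chd2 was level, at 21379 and 21755 reads in WT cells and 21801 and 21939 in intron deletion cells (log2 0.02 ± 0.05, adjusted p = 0.757). Leaving out either WT library ended the contact call (adjusted p up to 0.259, log2 0.25 to 0.30 over the 6 fits).

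Kmt2c encodes a close relative of Kmt2d with the same activity at enhancers, and lies on chromosome 5 from 25271795 to 25498855 (gene ID 231051). Scaled contacts were 158 and 137 in WT cells, 188 and 211 in intron deletion cells, and 200 and 145 in upstream deletion cells. Both intron deletion libraries lay above WT (1.37-fold, log2 0.46 ± 0.14 SE, adjusted p = 0.0315), and the upstream deletion control library lay between them. All 3 shared loops ran 30 to 32 kb outward from the start of the gene, and the loop from 25499001 to 25529001 rose by itself (log2 0.55 ± 0.19, adjusted p = 0.0395). Its anchor lies in the 1 kb flank of the gene and in the noncoding RNA gene 4831440E17Rik. With spans that were not extended by 1 kb, the log2 change of Kmt2c was 0.03. The call was also lost without either WT library, the intron deletion IL-2 library or the upstream deletion IL-2 library (adjusted p up to 0.451, log2 0.20 to 0.69). Coverage of Kmt2c rose too, from 7873 and 7575 reads in WT cells to 9160 and 8934 in intron deletion cells (log2 0.23 ± 0.04, adjusted p = 0.0136). The upstream deletion libraries, at 9099 and 8281, also lay above WT and did not pass (log2 0.17 ± 0.04, adjusted p = 0.119). Most of the rise in intron deletion cells lay in the same flank bin at 25499001. It held 5989.5 and 5757 reads in WT cells, 7130 and 6978 in intron deletion cells, and 6792 and 6186.5 in upstream deletion cells. The start-site bin at 25498001 held 1883 and 1818 in WT cells, 2030 and 1956 in intron deletion cells, and 2307 and 2095 in upstream deletion cells.

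Coverage changed in intron deletion cells for 12 of the 36 genes, 33.3% of them against 40.1% of all features. Both intron deletion libraries lay outside the range of the WT pair for 23 of the 36 genes, 63.9% against 68.1% of all features. Rises were found for Arid5b, Chd1, Hdac7, Kdm2a, Kdm8, Kmt2c, Kmt5b, Smarcd2 and Smarce1, and falls for Kmt2a, Kmt2b and Smarcb1. DESeq2 called 8 of the 12, and in it Kdm8, Kmt5b, Smarcb1 and Smarce1 missed the threshold (adjusted p = 0.0547, 0.136, 0.129 and 0.140). The largest rise was that of Smarcd2, from 7589 and 7128 reads in WT cells to 8922 and 8965 in intron deletion cells, with 7767 and 7336 in upstream deletion cells (log2 0.28 ± 0.05 SE, adjusted p = 0.00793). Its contacts did not differ detectably (log2 0.06 ± 0.08, adjusted p = 0.665). Without either WT library no gene of the set passed in coverage, and without either upstream deletion library 9 did.

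Of the 8 methyltransferase genes measured in coverage, 2 rose and 2 fell, beside 857 and 809 of all 4157 features. Kmt2a and Kmt2b, which encode related enzymes of H3K4 methylation at promoters, had lower coverage in intron deletion cells. For Kmt2a it was 5982 and 5012 reads in WT cells, 4406 and 3986 in intron deletion cells and 6151 and 4760 in upstream deletion cells (log2 -0.38 ± 0.06 SE, adjusted p = 0.00828). For Kmt2b it was 1332 and 1378, 1099 and 1094, and 1071 and 1204 (log2 -0.31 ± 0.06, adjusted p = 0.0163). Both intron deletion libraries lay below both WT libraries in each gene, and for Kmt2b the upstream deletion libraries did as well. Kmt2c, described above, and Kmt5b, an H4K20 methyltransferase gene, rose (log2 0.14 ± 0.04 for Kmt5b, adjusted p = 0.0441). Coverage of Kmt2b and of Kmt5b came from 1 bin each, as did that of Kdm8, Smarcb1 and Smarce1 among the other genes called. In contacts Kmt2b had 43.3 and 38.4 in WT cells, 32.3 and 22.2 in intron deletion cells and 27.03 and 23.3 in upstream deletion cells, from 1 loop to Zbtb32, and did not pass (log2 -0.61 ± 0.21, adjusted p = 0.0709).

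**Figure D5:**
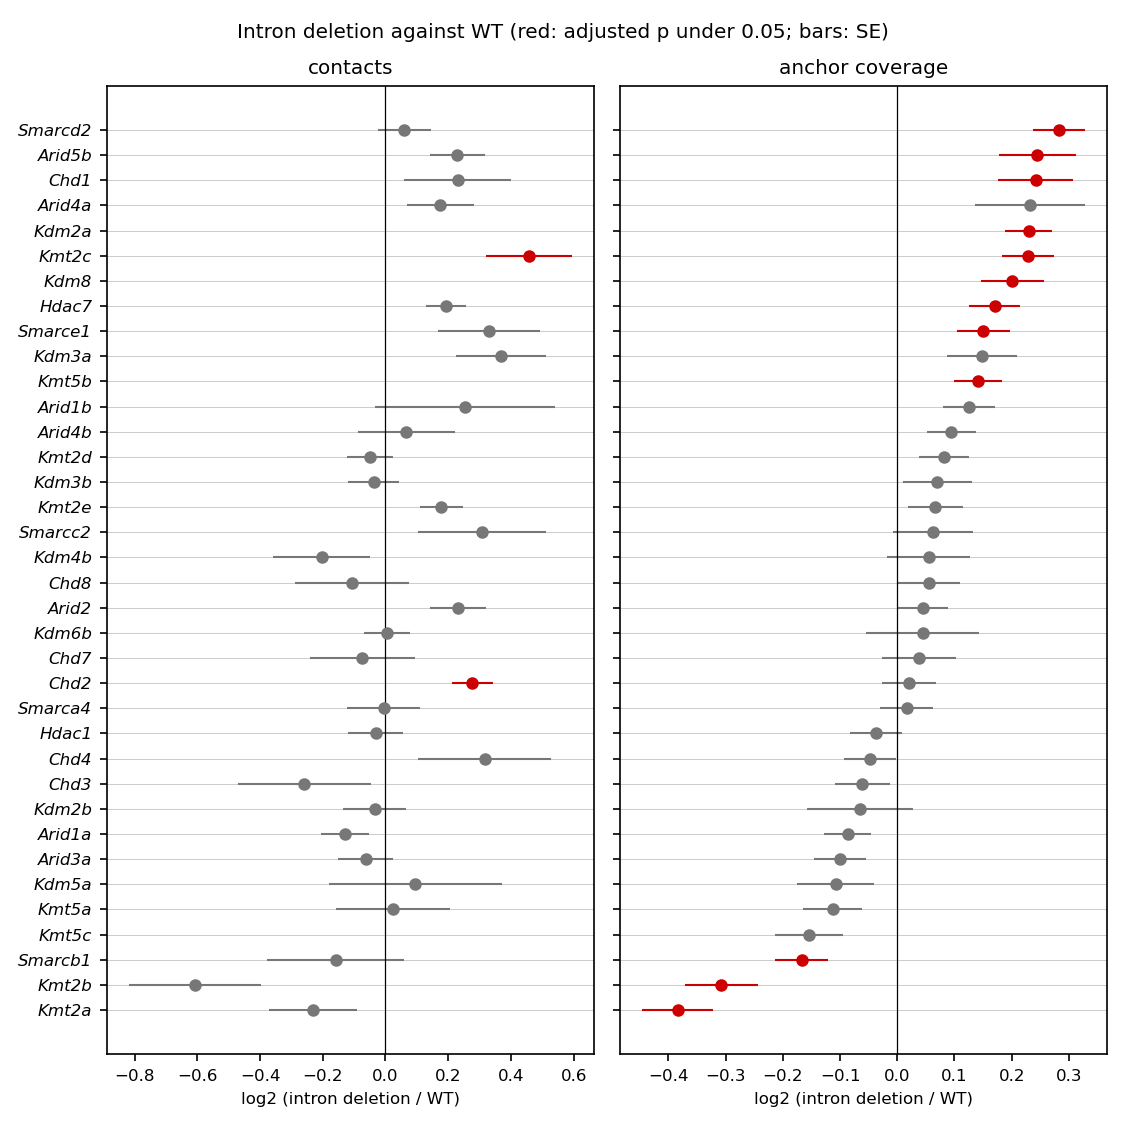
Log2 ratio of the intron deletion to WT with its SE for contacts (left, 32 genes) and coverage (right, 36 genes), ordered by the change in coverage; red marks an adjusted p under 0.05. Chd2 and Kmt2c pass in contacts, and 12 genes pass in coverage, from Kmt2a at -0.38 to Smarcd2 at 0.28.

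Among the other families, the demethylase genes Kdm2a (H3K36) and Kdm8 (a JmjC protein) rose in coverage by 0.23 ± 0.04 and 0.20 ± 0.05 on the log2 scale (adjusted p = 0.0103 and 0.0356), while neither had a shared loop. Hdac7 rose from 38727 and 37001 reads in WT cells to 43148 and 42049 in intron deletion cells, with 37034 and 34514 in upstream deletion cells (log2 0.17 ± 0.04, adjusted p = 0.0306). Its contacts had a similar estimate that just missed the threshold (log2 0.19 ± 0.06, adjusted p = 0.0522). Chd1, a helicase that binds methylated H3K4, and Arid5b, a partner of the demethylase Phf2, each rose by 0.24 (adjusted p = 0.0350 and 0.0368). For both genes the upstream deletion libraries also lay above WT, at 9529 and 7970 reads for Chd1 against 7877 and 6994 in WT cells. The same held for Kdm2a, Kmt2c, Kmt5b and Smarce1, with 5521 and 5228 reads for Kdm2a against 4932 and 4750 in WT cells. For Hdac7, Kdm8 and Smarcd2 the upstream deletion libraries overlapped those of WT. Of the SWI/SNF genes, Smarce1 rose by 0.15 ± 0.05 and Smarcb1, a core subunit, fell by 0.17 on the log2 scale (adjusted p = 0.0492 and 0.0376). The coverage calls of Hdac7, Kmt5b, Smarce1 and Smarcb1 were lost without any 1 of the WT or upstream deletion libraries.

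Single loops followed the genes in part. Of the 296 shared loops 6 passed in intron deletion cells, 5 higher and 1 lower, which is 2.03% against 11.3% of all shared loops. Besides those of Chd2 and Kmt2c, the higher loops were a loop of 38 kb within Arid5b (23.8 and 21.4 scaled contacts in WT cells, 41.5 and 39.4 in intron deletion cells, log2 0.85 ± 0.25, adjusted p = 0.0144), a loop of 11 kb within Hdac7 (41.9 and 29.6, 55.7 and 58.7, log2 0.71 ± 0.23, adjusted p = 0.0281) and a loop of 14 kb from Kmt2e into 5031425E22Rik (98.1 and 90.4, 139 and 129, log2 0.51 ± 0.16, adjusted p = 0.0201). The lower loop joined Kmt2d and Rhebl1 over 7 kb, with 81.0 and 86.3 in WT cells, 54.4 and 54.1 in intron deletion cells, and 88.4 and 90.1 in upstream deletion cells (log2 -0.63 ± 0.20, adjusted p = 0.0180). The summed contacts of Kmt2d differed by -0.05 ± 0.07 and did not pass (adjusted p = 0.673).

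In the upstream deletion no gene of the set passed the edgeR test against WT in contacts, coverage or single loops. All features passed at 0.513%, 0.12% and 0.0785%. At an unadjusted p under 0.05 there were 4 of 32 genes, 10 of 36 genes and 13 of 296 loops, beside 435 of 3508, 1000 of 4157 and 2294 of 28033 over all features, and DESeq2 called none of the genes in contacts or coverage (it was not run on single loops). The widest estimates in contacts were 0.70 for Arid1b and -0.70 for Kmt2b (adjusted p = 0.283 and 0.176). Arid1b, which encodes the paralogue of Arid1a, had 1 shared loop of 87 kb with 20.7 and 17.6 scaled contacts in WT cells, 28.5 and 18.5 in intron deletion cells and 25.9 and 36.0 in upstream deletion cells, close to the listing limit. The 1 shared loop of Kmt2b was also close to this limit in deletion cells. Before scaling it had 46 and 48 contacts in WT cells, 25 and 24 in intron deletion cells, and 24 and 22 in upstream deletion cells. The intron and upstream deletion comparisons share their WT libraries.

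Loops near the listing limit were listed more often with IL-2, in libraries that also differed in depth. Of the 1135 loops of the set, 309 (27.2%) were listed in IL-2 libraries only and 108 (9.52%) in control libraries only. For all loops these shares were 31.1% and 7.19%, and the part of depth in them was not tested. Loops listed in all 3 IL-2 libraries and in no control library numbered 14, and none were listed the other way round (2030 and 55 of all loops). They belonged to Chd2 (3 loops), Kdm6b and Kmt2d (2 each), and Arid1a, Arid1b, Arid2, Arid3a, Chd4, Hdac7 and Kdm2b (1 each). The longest joined Kmt2d at 98872001 on chromosome 15 to the bin at 98993001, 121 kb away, with 37 contacts in WT cells, 26 in intron deletion cells and 23 in upstream deletion cells with IL-2 and fewer than 20 or unlisted in the controls. A loop of 72 kb from Arid1a had 28, 29 and 22. Kdm2b, whose shared contacts fell, also had 1 such loop of 24 kb, with 21, 22 and 26.

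Partners of these genes were read from 10 lists of 142 further chromatin regulators, of which 61 had shared loops. With IL-2 3 rose and 1 fell, in intron deletion cells 4 rose and 8 fell, and in upstream deletion cells none changed, against 5.59%, 17.3% and 0.513% of all features called in either direction. Among 7 measured SWI/SNF subunits outside the set, Actb and Pbrm1, a PBAF subunit, rose with IL-2 (log2 0.33 ± 0.06 SE and 0.43 ± 0.10, adjusted p = 0.0107 and 0.0236) and Bicra, of the non-canonical complex, fell (-0.41 ± 0.09, adjusted p = 0.0157). Actb also encodes cytoskeletal actin. Gps2, a subunit of the NCoR corepressor, rose with IL-2 by 0.40 ± 0.06 (adjusted p = 0.00528) among 11 measured corepressor genes. In the intron deletion the acetyltransferase genes Kat2b and Kat7 rose (0.80 ± 0.09 and 0.28 ± 0.09, adjusted p = 2.9e-05 and 0.0471) among 5 measured. Of 12 measured methyltransferase genes outside the set, Nsd3 rose by 0.39 ± 0.07 and Ezh2, Prmt1 and Setd1a fell by 0.51, 0.34 and 0.23 on the log2 scale (adjusted p = 0.000806, 0.000133, 0.0100 and 0.0392). The Polycomb gene Eed, whose product works with that of Ezh2, fell by 0.65 (adjusted p = 0.000405) as 1 of 8 measured Polycomb genes. The others, Suz12 among them, did not pass, and the median log2 change of the 8 was 0.06. The maintenance methylation genes Dnmt1 and Uhrf1 fell by 0.30 and 0.24 of 4 measured DNA methylation genes (adjusted p = 0.0179 and 0.0354), and Bptf and Trim28 fell by 0.50 and 0.26 (adjusted p = 0.00284 and 0.0336) of 5 remodelling subunit genes and 2 acetyl-lysine reader genes. Phf2 rose by 0.49 ± 0.13 (adjusted p = 0.0187) of 3 measured demethylase genes outside the set. None of the 4 measured sirtuin genes changed in any comparison. Uhrf1 was also the partner of both shared loops of Kdm4b, whose contacts did not pass in intron deletion cells (log2 -0.20 ± 0.15, adjusted p = 0.398).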

How the data were processed

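Of the 25 samples of the series, the 6 H3K27ac HiChIP libraries were analysed, while the ChIP-seq data (19 samples) are not analysed here. Per the submitters' processing notes, the genome build was mm10 and the tools included CASAVA, Bowtie2 (2.2.6) and HiC-Pro. The deposited tables follow the layout of the loop caller FitHiChIP, per the file headers, whose version, peak set and threshold the sources used here do not give. The authors deposited a contact count for each pair of bins and a coverage, a whole-number count of reads, for each bin, neither normalised. The names of the tables carry the number 2 for the replicate, which no label repeats.

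Genes and their spans came from RefSeq (GRCm38.p6). Genes with the same shared loops formed 1 feature, so Kdm5a shares its value with Ccdc77, Smarcb1 with Chchd10 and Kmt5a with Sbno1. Contacts (3508 features), coverage (4157) and shared loops (28033) were each fitted in edgeR 4.0.16 under R 4.3.3 (glmQLFit and glmQLFTest, TMM, two-sided), with 2 residual degrees of freedom, common dispersions of 0.00245, 0.00248 and 0.00264, and prior degrees of freedom of 13.4, 3.47 and infinity. An adjusted p is from edgeR unless DESeq2 (1.42.0) is named. The fit was tested on simulated data. Named genes were those past the threshold, the 3 highest per length and the largest rise and fall of each family, genes of textbook note in CD8+ T cells, genes without a loop (by symbol) and list genes past the threshold. Members, lists and rules were chosen with earlier results of these data known. Alternatives changed the scaling, test, filter, unlisted pairs, span, anchors, readout, design terms and libraries.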

Additional observations from a re-analysis of the deposited data

Results flagged for a closer look

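The IL-2 response of the intron deletion differed from that of the other 2 genotypes at 10 genes of the set in coverage, 27.8% of the 36 measured against 27.5% of all features, and at 1 of these also in contacts, tested as a difference of log2 responses in edgeR with 1 residual degree of freedom. Kdm2b differed in both readouts, by 0.464 in contacts and 0.335 in coverage (adjusted p = 0.00150 and 2.34e-07): with IL-2 it was lower in each genotype, least so with the intron deletion. Kdm6b differed by -0.361 in coverage (adjusted p = 2.02e-08), with log2 responses of 0.39 in WT cells, 0.08 in intron deletion cells and 0.49 in upstream deletion cells. Coverage responses of Arid4a, Chd1, Chd7, Kmt2a, Kdm3b and Arid5b were higher in intron deletion cells, by 0.284, 0.2, 0.197, 0.166, 0.159 and 0.153, and those of Kdm4b and Kdm3a were lower, by -0.226 and -0.193. For each of the 10 genes the coverage response of the intron deletion lay nearest 0. This order is not a separate result, since the genes were chosen by these same responses. Its share over all features was not counted. Chd7 differed in sign: its log2 coverage responses were 0.07 in intron deletion cells, -0.15 in WT cells and -0.11 in upstream deletion cells, the intron deletion being the 1 genotype above 0. The prior degrees of freedom were 94.6 for contacts and infinite for coverage, so these tests borrow nearly all of their spread from other genes. The control library of the intron deletion was also the shallowest, and its part in these differences was not tested.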

How the results depend on the processing

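No paired analysis was possible because the labels give the libraries no replicate numbers, and each genotype and treatment has 1 library; the genotype term does set each IL-2 library against the control of its own genotype. Counts below are genes of the set, then all features, past the threshold. In contacts, IL-2 called 3 and 196, the intron deletion 2 and 606, and the upstream deletion 0 and 18. With DESeq2 these were 0 and 17, 0 and 171, and 0 and 3; with unlisted pairs set to 0, 0 and 0, 0 and 222, and 0 and 0; with unlisted pairs set to 19 contacts, 1 and 114, 2 and 752, and 0 and 15. Spans that were not extended gave 0 and 67, 1 and 506, and 0 and 7, and spans extended by 5 kb gave 2 and 125, 4 and 627, and 0 and 6. Anchors at gene ends gave 1 and 99, 2 and 335, and 0 and 18, and loops touching no other gene 0 and 41, 1 and 344, and 0 and 4. Genes with a mean of at least 100 contacts gave 3 and 142, 4 and 509, and 0 and 10, coverage in place of contacts 0 and 0, 12 and 1666, and 0 and 5, and a design without the other term (genotype for IL-2, treatment for the deletions) 0 and 0, 0 and 195, and 0 and 0. RLE size factors called 3 members in intron deletion cells and moved no other member count in contacts. In coverage, DESeq2 called 5 and 726 with IL-2, 8 and 1385 in intron deletion cells and 173 of all features in upstream deletion cells, and RLE size factors 10 of all features there. Leaving out 1 library moved the contact counts from 0 to 7 and 0 to 854 (IL-2), 0 to 6 and 85 to 1021 (intron deletion), and 0 to 2 and 0 to 336 (upstream deletion), and the coverage counts from 0 to 23 and 0 to 2575, 0 to 23 and 193 to 2726, and 0 to 18 and 0 to 1885. In such fits the remaining library of a genotype was assumed to vary like the others. In such fits the log2 coverage change with the intron deletion ranged from -0.237 to 0.0984 for Kdm2b and from -0.139 to 0.221 for Kdm6b, against -0.07 and 0.04 with all libraries, neither called; the bounds of opposite sign (0.0984 and -0.139) came without the intron deletion control library. The cause of these shifts was not tested. Depth limits the set to loops with 20 or more contacts in each library.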
